A study of Drosophila melanogaster with 16 samples.

Results

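Genes of neuronal excitability and synaptic transmission were followed through an RNA editing experiment in dissociated larval (L3) Drosophila brains and in S2 cells. They are 35 genes chosen by symbol, of which 24 had at least 1 A-to-G position in the table of editing frequencies, out of 5003 genes in that table. Together the 24 genes held 115 of the 32874 A-to-G positions. The other 11 genes had no such position. In brains, the cells came from larvae of both sexes with a UAS transgene for FMR1-ADARcd-V5, followed by EGFP as a separate product, under the pan-neuronal driver elav-GeneSwitch-Gal4. The fusion joins FMR1, an RNA-binding protein found in stress granules, to the catalytic domain of the editing enzyme ADAR, which turns adenosine into inosine that is then read as G. Arsenite brain cells were induced with RU486 and then stressed with 0.5 mM sodium arsenite for 4 h, 3 replicates. Schneider's brain cells were induced in the same way and kept in Schneider's medium for 4 h, 3 replicates. Uninduced brain cells carried the same transgenes, received no RU486 and stayed in Schneider's for 4 h, in 1 library. The S2 cells, an embryonic line of haemocyte-like character, were 1 stably transfected clone with the fusion behind a copper-inducible metallothionein promoter. They were sampled as 3 arsenite libraries, 3 Schneider's libraries and 1 uninduced library, with 1 mM copper for 4 h in the induced ones. Arsenite was again 0.5 mM for 4 h, and the other S2 cells stayed in Schneider's for 4 h. The driver directs the fusion to neurons, though the study also counted it in a small share of glial cells. The RNA was taken from all dissociated brain cells, and each brain library pools several animals.

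A synapse releases transmitter when calcium channels at the active zone open and SNARE proteins fuse docked vesicles with the membrane. Sodium and potassium channels shape the action potential that opens them, and the sodium pump restores the gradients afterwards. Transcripts of many of these proteins are long known as natural substrates of the fly's own Adar, which recodes single residues of potassium and sodium channels and of release proteins in the nervous system. An A-to-G read in such a gene can therefore come from the endogenous enzyme or from the fusion. The uninduced library, which had no inducer, is the measure used here to tell them apart, as far as it held no fusion. The study examined the fusion without inducer by immunofluorescence, which was not analysed here.

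The editing frequency of a gene is the mean, over its A-to-G positions with reads, of the edited share of reads, and a gene without a read in a sample takes the value 0. Reads at A-to-G positions numbered 247153 to 367841 per brain library and 381559 to 458176 per S2 library. Over all genes, 7.09% to 10.6% of these reads were edited in arsenite brains, 3.76% to 4.75% in Schneider's brains and 0.731% in the uninduced brain library, and arsenite replicate 1 was the highest. In S2 cells the shares were 18.2% to 18.5% with arsenite, 9.57% to 9.73% in Schneider's and 0.562% uninduced. Reads of a gene were scaled to a library total of 1000000 reads at A-to-G positions (RPM). By these values the markers went with the labels. Of 6 neuronal genes, 5 (elav, fne, brp, nSyb and Syt1) summed to 1602 to 2142 RPM in brain libraries against 37.4 to 75.1 in S2 libraries. Of these, brp, nSyb and Syt1 are also genes of the set, and a gene read in a single tissue holds positions only through that tissue. The 6 neuroblast genes summed to 2513 to 3950 RPM in brains against 7.36 to 67.9 in S2 cells, 3 of 8 glial genes to 53.6 to 103 against 12.3 to 35.8, and 4 of 6 S2 and haemocyte genes to 206 to 379 against 2476 to 3066. Between arsenite and Schneider's brains, the summed neuronal markers ran from 1739 to 2142 and from 1602 to 1955 RPM, so these ranges overlapped.

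Atpalpha, the catalytic subunit of the sodium pump, dominated the gene set, with 32 positions that make up 27.8% of the set's positions and 47.2% of its reads in brains. It lies on chromosome 3R from 20948714 to 20976239 (BDGP6, plus strand). Next came Appl, the fly homologue of the amyloid precursor protein (chromosome X, 530501 to 579044), with 12 positions, and Csp, the cysteine string protein that chaperones vesicle proteins, with 9. The voltage-gated potassium channel Shab had 7 positions, the vesicle priming factor unc-13 had 8, and 8 genes had a single position. The median was 2.5 positions per gene in the set and 4 over all genes.

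Reads at these positions differed between the tissues, in part through how the positions were found. The quality limit applied to the merged libraries, so a gene read in brains alone could hold a position only through brain reads. The counts that follow are therefore a description and no test. In 16 of the 24 genes every brain library was above every S2 library in RPM at the gene's positions, where 23.2% of all genes did so. These numbers count reads at edited positions only and depend on how many positions a gene has, so they were compared between tissues within a gene and not between genes. In bulk samples, fewer cells of a type and less RNA per cell cannot be told apart. No read fell on Rim, para, Sh, Shab, eag, Syt1, nAChRalpha2, VAChT or Ace in any of the 7 S2 libraries. Another 7 genes had 1 to 6 S2 reads in all, among them brp, the scaffold of the active zone, with 2 S2 reads against 427 brain reads. The vesicle SNARE nSyb had a median of 104 RPM in brains (84.3 to 123) and 2.42 in S2 cells (0 to 4.85). Appl had a median of 680.0 in brains (620.1 to 906) and 28.4 in S2 cells (10.5 to 36.4). Rop, the Sec1/Munc18 protein that also serves general secretion, was the 1 gene below in every brain library, with a median of 158 (109 to 207) against 442 in S2 cells (390 to 482), as 23.3% of all genes were. Csp, lap, shi and sei overlapped between the tissues among the genes with at least 70 S2 reads, and 8 genes reached that depth.

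**Figure D1:**
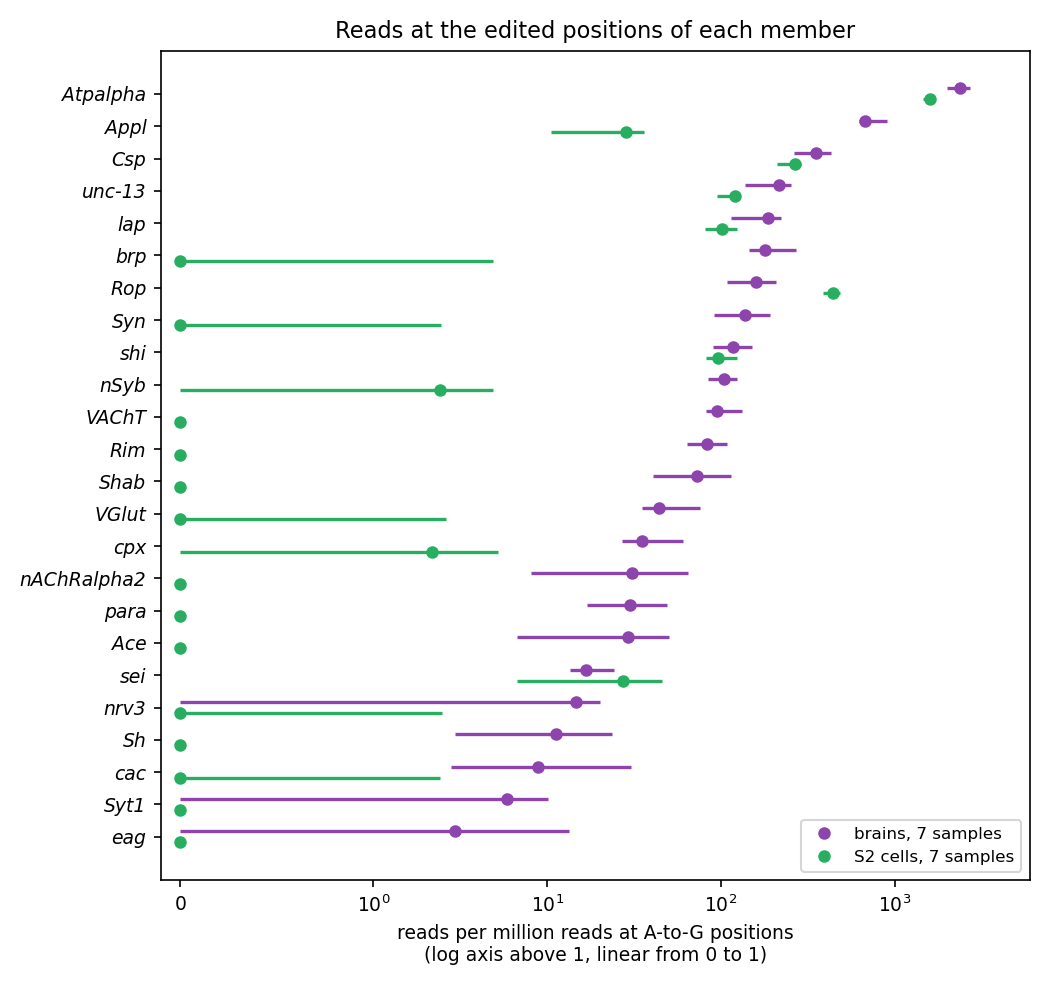
RPM at A-to-G positions for the 24 genes, as the median (point) and the range (line) over 7 brain libraries and 7 S2 libraries, on an axis that is logarithmic above 1 and linear below it. Brains lie above S2 cells without overlap for 16 genes, Rop lies below, and 9 genes have no S2 read at all.

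Of the 115 positions, 92 lay in coding sequence, 13 in 3′UTRs and 10 in 5′UTRs. Coding positions were 80.0% of the set and 88.5% of all 32874 positions. Editing would recode the residue at 76 of the 92, or 82.6% of them, against 75.9% of coding positions in all genes. Of the other 16 coding positions 1 was silent, and at 15 the edited base is the last of a codon whose other bases were not read here. The base before the edited adenosine was T in 42.6% of the set (U in the RNA) and G in 6.09%, against 36.2% and 4.93% over all positions. The base after it was G in 43.5% and 50.0%. The uppercase letter below marks the edited adenosine in the 3 bases, written 5′ to 3′ in the sense of the gene, that the files give for the positions on which the results turn.
Shab site 2: tAg
Shab site 4: aAt
Shab site 6: aAt
eag site 1: aAg
Sh site 1: gAt
Syt1 site 1: tAc
lap site 4: aAc
Atpalpha site 13: tAc
Atpalpha site 22: tAc
Appl site 3: tAc
Sites are numbered along each transcript. Both positions that passed the test in brains, described further on, and Atpalpha site 13 share the bases tAc. So do Syt1 site 1 and positions tested in brains without a call, such as Appl site 2 and Atpalpha site 29. The share of tAc over all positions was not counted, so no motif is read from this.

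An edited read occurred in the uninduced brain library in 10 of the 24 genes, against 17.8% of all 5003 genes. The 10 were Atpalpha, Appl, lap, unc-13, Rim, Syt1 and the channel genes Shab, Sh, eag and para. In all, 44 of 1840 uninduced brain reads at the 115 positions were edited, or 2.39% (95% exact binomial interval 1.74 to 3.2), where the library as a whole stood at 0.731%. Shab alone held 22 of the 44, on 41 reads. Neighbouring positions can share reads, which the interval does not take into account. All intervals cover counting error only. Edited reads fell on 19 positions, of which 7 had at least 10 uninduced reads and 12 had fewer, and 9 of the 19 rested on a single edited read.

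The highest uninduced frequencies were those of eag (100%), Shab (62.3%), Sh (50%) and Syt1 (50%), and of these Shab had the most reads. Shab, a delayed rectifier channel on chromosome 3L from 2895017 to 2959579, had 41 uninduced brain reads, of which 22 were edited. Its site 4, at position 2941132, was edited in 14 of 23 arsenite reads (60.9%), in 8 of 11 Schneider's reads (72.7%) and in 9 of 9 uninduced reads (interval 66.4 to 100%). Site 2, at 2925255, was edited in 5 of 7 arsenite reads, 3 of 3 Schneider's reads and 4 of 4 uninduced reads. Site 6, at 2941426, was edited in 5 of 9 arsenite reads, 3 of 4 Schneider's reads and 3 of 3 uninduced reads. These 3 are first bases of codons, so the change recodes the residue. Sites 3 and 5 adjoin sites 4 and 6 and share nearly all their reads, and site 5 was edited in 0 of 9 arsenite, 2 of 4 Schneider's and 3 of 3 uninduced reads. The remaining Shab sites were lower in the uninduced library, where site 3 had 2 of 8 reads edited, site 7 had 1 of 9 and site 1 had 0 of 5.

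The other channels were read too thinly for more than their counts. The ether-a-go-go channel eag had 1 position, the recoding site K467R counted in the residues of its longest coding transcript. It was edited in 4 of 5 arsenite reads, 3 of 3 Schneider's reads and the 1 uninduced read. The Shaker channel Sh was edited at its 1 position in 2 of 9 arsenite reads, 5 of 13 Schneider's reads and 2 of 4 uninduced reads. The sodium channel para had 2 positions. Its site 1 was edited in 2 of 13 arsenite, 2 of 20 Schneider's and 1 of 8 uninduced reads. Its site Q471R was edited in 1 of 12 arsenite, 4 of 12 Schneider's and 0 of 3 uninduced reads. The calcium sensor Syt1 was edited at the last base of a codon in 5 of 8 arsenite, 2 of 4 Schneider's and 1 of 2 uninduced reads. None of these 4 genes had a read in S2 cells. The presynaptic calcium channel cac had 1 uninduced read, and it was not edited.

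At a limit of 10 uninduced reads, 3 edited reads and a 5% share, 3 positions remained, called endogenously edited here as a name for this limit. Whether the fly's own Adar or fusion made without inducer edited them was not tested. Atpalpha site 13 recodes Y429C at position 20965039 and was edited in 49.3% of 71 arsenite brain reads (interval 37.2 to 61.4), 56.1% of 57 Schneider's reads (42.4 to 69.3) and 13.3% of 30 uninduced reads (3.76 to 30.7), so the induced brains were above the uninduced library and overlapped each other. In S2 cells the same site was edited in 64.8% of 54 arsenite reads, 76.6% of 64 Schneider's reads and 6 of 16 uninduced reads. This site is thus edited without induction in both tissues. The clathrin adaptor gene lap, a relative of AP180, had site 4 at position 7192775 of chromosome 3R, edited in 13 of 28 arsenite, 21 of 48 Schneider's and 3 of 12 uninduced brain reads. In S2 cells lap site 4 had no edited read among 20 arsenite, 16 Schneider's and 7 uninduced reads, and the exact 95% interval of the arsenite share reaches 16.8%. Atpalpha site 8, E192G, was edited in 3 of 71 arsenite reads, 3 of 100 Schneider's reads and 3 of 43 uninduced reads. Its uninduced share of 6.98% was below the 8.33% of uninduced brain reads with a change at the A-to-C positions of the set. It was above the 5.10% at the T-to-G positions.

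**Figure D2:**
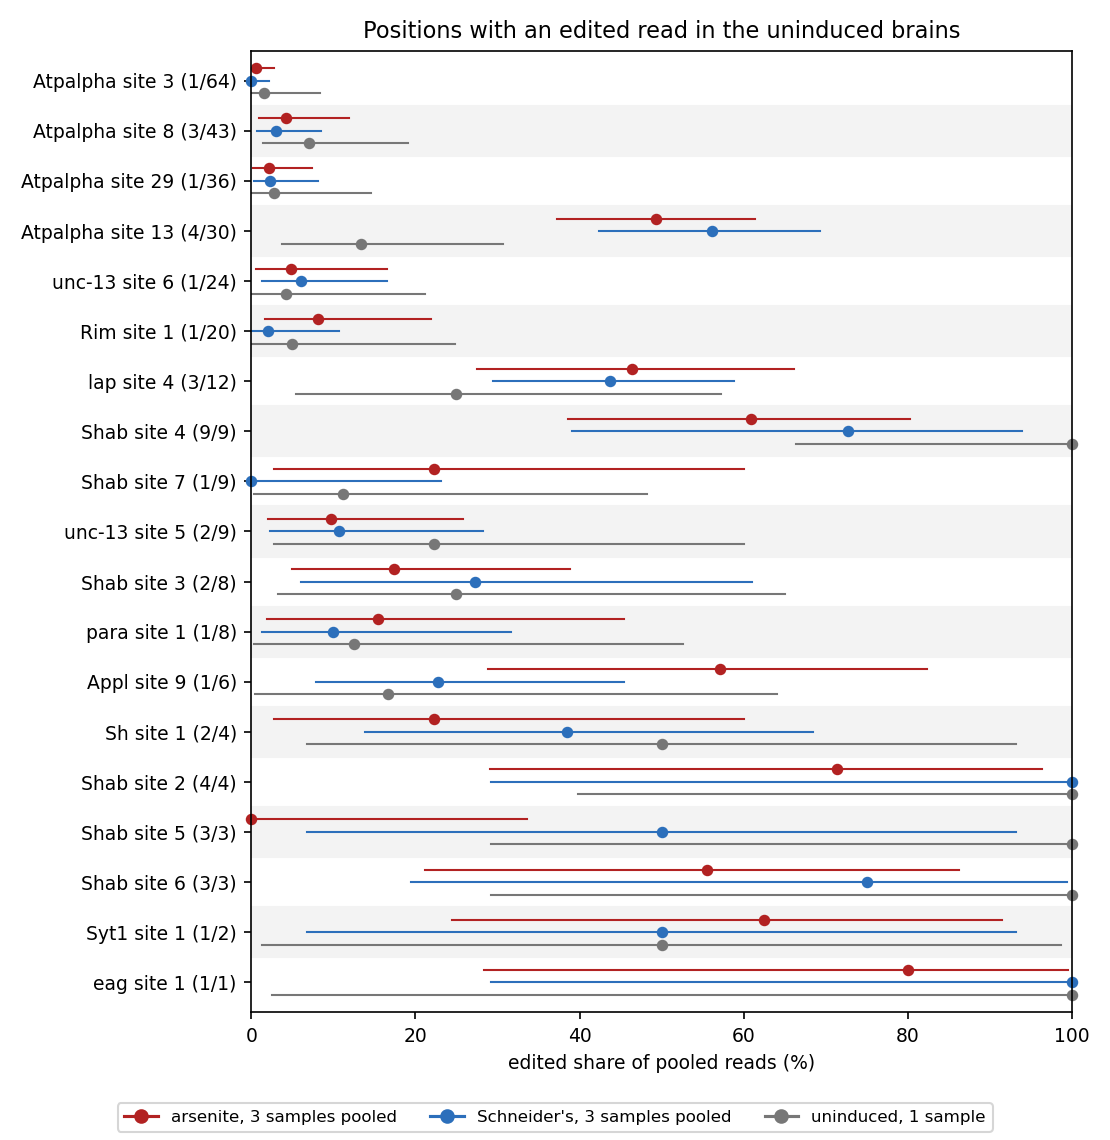
Edited share of pooled reads with its 95% exact binomial interval at the 19 positions with an edited read in the uninduced brain library, for arsenite, Schneider's (3 replicates pooled each) and uninduced brains (1 library), ordered by uninduced reads, whose edited and total numbers stand beside each name. Atpalpha site 13 and lap site 4 lie higher in both induced conditions than uninduced, while Shab sites 2, 4 and 6 are at 100% of few uninduced reads.

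At these positions the difference between arsenite and Schneider's brains was within the replicate spread. The mean share over the 3 positions was 25.4%, 27% and 43.2% in arsenite brains and 19.4%, 44.2% and 46.7% in Schneider's brains. The arsenite mean of 31.9% ± 9.87 and the Schneider's mean of 36.8% ± 15.1 (SD, n = 3 each) overlapped widely, and the difference of -4.90 points was below either SD. Over all 19 positions with an uninduced edited read, the mean share was 25.8%, 37.9% and 22.8% in arsenite brains, against 26.1%, 33.2% and 38.6% in Schneider's brains. That wider group was formed after the values had been seen. The pooled share was higher with arsenite at 8 of the 19.

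Positions without an edited read in the uninduced brains were 59 at a depth of at least 10 uninduced reads, in 14 genes. Their mean share was 9.14%, 6.92% and 5.23% in the arsenite replicates and 3.69%, 4.41% and 2.85% in the Schneider's replicates. By this measure every arsenite value was above every Schneider's value. The means were 7.10% ± 1.96 and 3.65% ± 0.781 (SD, n = 3 each), a difference of 3.45 points. With reads pooled over the 59 positions the difference was 2.87 points. The groups then overlapped, as arsenite replicate 3 fell below Schneider's replicate 2. Pooled reads over the positions of all genes did not overlap, with 7.09% to 10.6% edited in arsenite brains and 3.76% to 4.75% in Schneider's. The pooled share was higher with arsenite at 40 of the 59. Such counts were not made over all positions, here or for the single genes below. The uninduced library had no edited read among 1342, with an exact 95% upper bound of 0.275%. Since the class was fixed by the uninduced library, the 0 there is no result, and the size of the arsenite difference was not compared with that of the 3 endogenously edited positions. In S2 cells, the same 59 positions averaged 13.9% ± 0.863 with arsenite and 5.44% ± 1.21 in Schneider's (SD, n = 3 each).

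Of the base changes that ADAR does not make, A-to-C and T-to-G served as background. The shares of the other changes are not given here, so these values do not stand for all of them. At 120 A-to-C positions in 26 genes of the set, 9.61% of arsenite brain reads, 9.74% of Schneider's brain reads and 8.33% of uninduced brain reads carried the change. At 45 T-to-G positions in 23 genes, 52 of 1446 arsenite brain reads, 74 of 1547 Schneider's brain reads (4.78%) and 30 of 588 uninduced brain reads (5.10%) carried it. At the A-to-G positions the shares with arsenite, in Schneider's and without inducer were 8.90%, 5.98% and 2.39%, and in S2 cells 15.6%, 6.62% and 0.749%.

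Gene by gene, Schneider's brains were also set against the uninduced library. The uninduced brain library was below every Schneider's brain replicate in 8 of the 21 genes edited in any of these 4 libraries, where 42.7% of all such genes were. Among them brp was at 20.9%, 8.87% and 14.8% in Schneider's and at 0% uninduced. The uninduced value was above the Schneider's mean in 5 genes, including Shab and Sh. With 1 uninduced library this comparison has no test.

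For arsenite against Schneider's in brains, 23 genes were tested with limma, and none passed p under 0.01. The study used that threshold with a different empirical Bayes test (ebbr), so these calls are not the study's own. With limma, 6.06% of all 4192 genes tested were called higher and 0.0954% lower at that threshold. At a Benjamini-Hochberg adjusted p under 0.05, 0.0239% were higher, with none of the set. At an unadjusted p under 0.05 there was 1 gene of the set, Appl, where 18.5% of all genes were higher. The mean was higher with arsenite in 17 of the 23, and in 86.7% of all genes. The median difference was 2.85 points in the set and 4.87 points over all genes. Every arsenite replicate was above every Schneider's replicate in 2 of the 23, Appl and Atpalpha, against 27.5% of all genes, and none had every replicate below, against 0.382%.

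Appl was edited at 15.7%, 15.4% and 18.3% in arsenite brains, against 7.2%, 11.9% and 9.77% in Schneider's brains and 1.39% uninduced. The arsenite mean was 16.5% ± 1.59 and the Schneider's mean 9.62% ± 2.35 (SD, n = 3 each). The difference was 6.83 points (SE 2.01), with adjusted p = 0.181 by limma. It passed p under 0.01 only when genes with fewer than 20 reads in any sample were left out. The pooled share was higher with arsenite at 9 of the 12 Appl positions.

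Atpalpha was edited at 9.15%, 8.46% and 6.33% in arsenite brains, against 3.88%, 4.95% and 3.56% in Schneider's brains and 0.770% uninduced. The means were 7.98% ± 1.47 and 4.13% ± 0.727 (SD, n = 3 each). The replicates did not overlap, and the difference of 3.85 points (SE 1.65) had adjusted p = 0.297 by limma. Its share was higher with arsenite at 21 of its 32 positions and lower at 8.

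Release genes were edited in the induced brains, and none was called. Csp stood at 13.9%, 5.24% and 4.03% with arsenite, and at 2.26%, 2.71% and 5.19% in Schneider's, with arsenite replicate 1 far above the others (adjusted p = 0.458 by limma). For unc-13 the values were 16.2%, 10.8% and 3.12% against 9.17%, 5.65% and 6.83%, and the groups overlapped. For brp they were 14%, 14.2% and 13.9% against 20.9%, 8.87% and 14.8%, with the arsenite replicates inside the Schneider's range. Sites 1 and 2 of brp are 6 bases apart and share nearly all their reads, so they are not independent. Synapsin, Syn, which tethers vesicles, had 21.7%, 8.73% and 6.64% against 7.53%, 2.78% and 3.12%. For lap the values were 26%, 23.2% and 33.1% against 6.48%, 16.2% and 41.2%. Sites 5 and 6 of lap had the same counts in every brain library, so they are not independent either. Arsenite replicate 1 was the highest of the 6 induced brain libraries for Csp, unc-13 and Syn, as it was over all genes, and its part in these values was not tested beyond leaving it out.

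The remaining release genes were low or thinly read. The active zone protein Rim had 15.3%, 0% and 0% with arsenite and 0%, 2.27% and 5% in Schneider's. Edited reads of shi, the dynamin of endocytosis, and of the fusion clamp cpx came from arsenite replicate 1 alone, at 8.10% and 11.1%. Rop had 0%, 5.56% and 6.67% with arsenite, and 1.85%, 4.17% and 0% in Schneider's. For nSyb the values were 10%, 14.4% and 5.88% against 4.76%, 10% and 13.2%.

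With every library included, the 5 channel genes that could be tested had a lower mean with arsenite, while 17 of the 18 other genes had a higher one. None of the 5 differences passed the test. They were -16.3 points for Shab, -11.1 for cac, -8.33 for eag, -6.81 for para and -3.97 for Sh. The whole cac difference came from Schneider's replicate 1, with 2 of 6 reads edited, against 0 of 13 arsenite reads over the replicates. The direction for Sh and eag depended on single libraries. The Sh difference was 15.5 points without arsenite replicate 1, 7.14 without arsenite replicate 3 and 7.94 without Schneider's replicate 3, and it ran from -34.5 to 15.5 points with a replicate left out. The eag difference was 20.8 points without arsenite replicate 3 and 8.33 without Schneider's replicate 1 or 3, and it ran from -41.7 to 20.8 points. For Shab the range was -26.6 to -6.47 points, and the difference was -2.28 points with reads pooled over positions and -0.954 in a quasi-binomial model of the reads. For para the range was -15.8 to -1.25 points, with -0.741 from pooled reads. The split between channel genes and the others was seen after the values were known and rests on 9 to 181 brain reads per gene over the 7 libraries. In Shab the deposited values were 26.9%, 51.4% and 13.9% with arsenite, 28.6%, 66.7% and 45.8% in Schneider's and 62.3% uninduced, so the groups overlapped (adjusted p = 0.491 by limma). For eag 1 arsenite and 1 Schneider's replicate were without a read and stand at 0. The sixth channel gene with positions, sei, had no edited read in brains, in 14 arsenite, 16 Schneider's and 7 uninduced reads, for an exact binomial upper limit of 23.2% with arsenite.

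**Figure D3:**
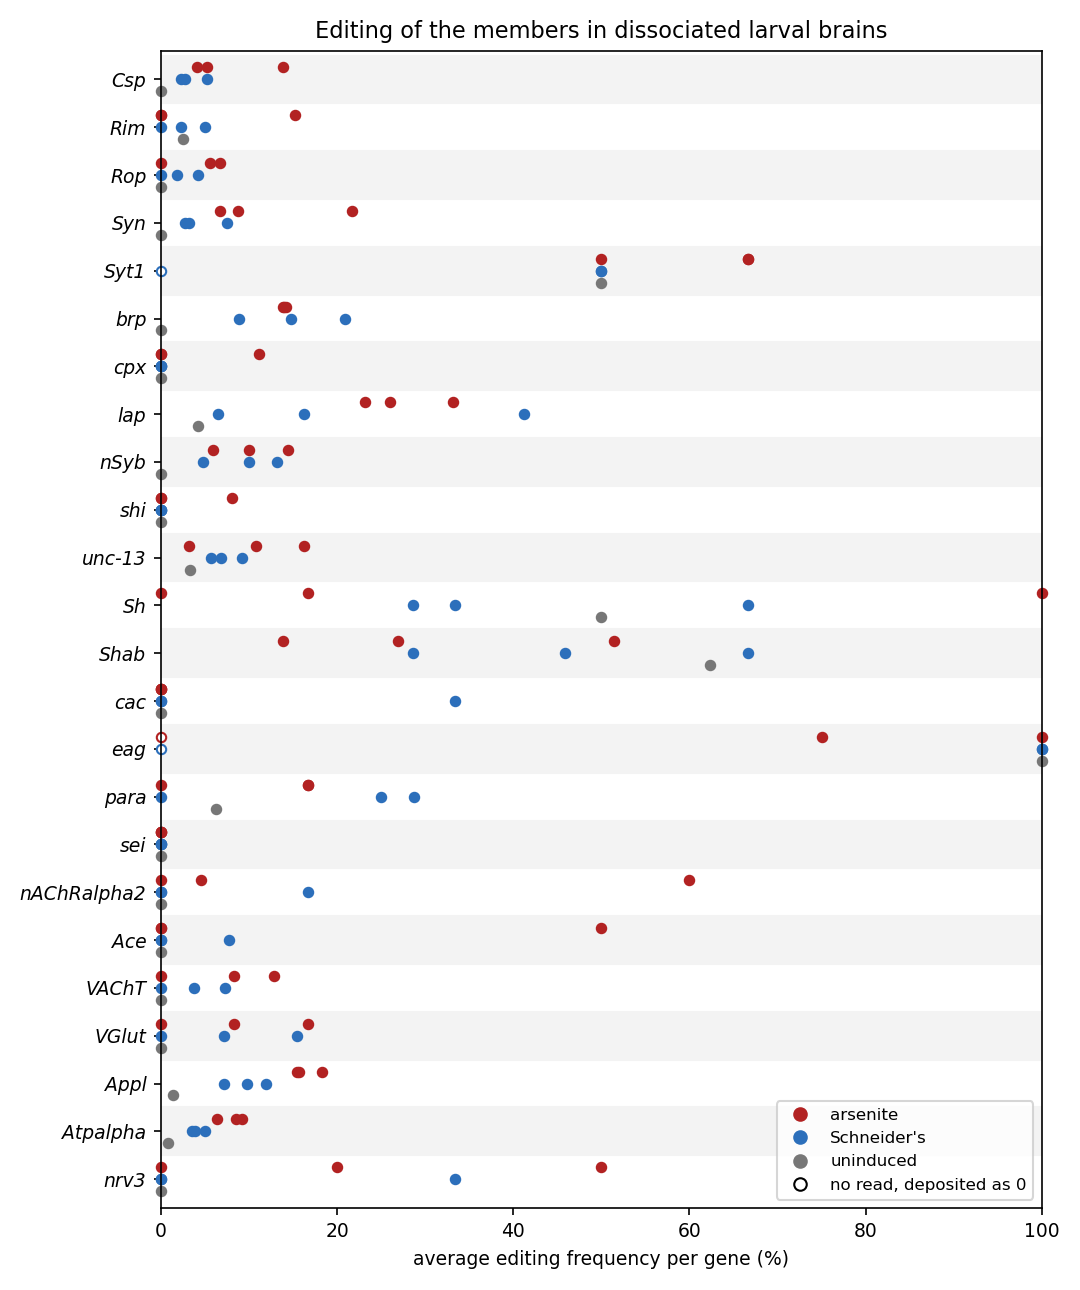
Deposited editing frequency of each of the 24 genes in the arsenite (red, 3 replicates), Schneider's (blue, 3 replicates) and uninduced (grey, 1 library) brain libraries, with open symbols where a library had no read of the gene, grouped from release genes at the top to pump and adhesion genes at the bottom. Only Appl and Atpalpha have every red point to the right of every blue point, and the points of Shab, Sh and eag include the uninduced library at 50% or more, as does that of Syt1.

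Transmitter genes, receptors and the pump's second subunit rested on few reads. The vesicular acetylcholine transporter VAChT, which lies within the locus of ChAT and shares its start, had 0%, 8.33% and 12.8% with arsenite, and 0%, 3.70% and 7.31% in Schneider's. The vesicular glutamate transporter VGlut had 8.33%, 16.7% and 0% against 7.14%, 15.4% and 0%. Acetylcholinesterase, Ace, had 1 edited read of 27 with arsenite and 1 of 23 in Schneider's. The nicotinic receptor subunit nAChRalpha2 had 7 edited reads of 44 against 1 of 19. Its 2 positions lie close together and share nearly all their reads, so these counts are not independent. The gene stood at 60%, 4.55% and 0% in the arsenite replicates. The pump beta subunit nrv3 had 4 edited reads of 16 with arsenite against 2 of 8 in Schneider's. All 5 were without an edited read in the uninduced brains.

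In S2 cells 9 genes of the set were tested and 3 were called higher with arsenite, Atpalpha, Rop and sei, with none lower. Of 4589 genes, 23.6% were called higher and 0.0872% lower at p under 0.01. The same 3 had an adjusted p under 0.05, as 27.2% of all genes did on the higher and 0.109% on the lower side. At an unadjusted p under 0.05 there were 5 of the 9 (those 3 with Csp and lap), against 44.7% of all genes. The mean was higher with arsenite in 7 of the 9, and in 91.1% of all genes. The median difference was 9.49 points in the set and 10.7 points over all genes. Every arsenite replicate was above every Schneider's replicate in 5 of the 9 (Atpalpha, Rop, sei, Csp and lap), against 51.4% of all genes.

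Atpalpha was edited at 18.1%, 18.1% and 16.9% in arsenite S2 cells, against 7.83%, 8% and 6.47% in Schneider's and 1.39% uninduced. The difference was 10.3 points (SE 1.80), with adjusted p = 0.0231 by limma. Rop was edited at 7.74%, 10.1% and 11.4%, against 0.718%, 0.521% and 3.19%, a difference of 8.29 points (adjusted p = 0.0408 by limma). Its 5′UTR position, site 1 at 4138858 of chromosome 3L, held 31 of its 53 edited arsenite reads, with 31 of 110 arsenite reads edited at this site against 1 of 120 Schneider's reads. The potassium channel sei, of the ERG type, was edited at 45.8%, 36.4% and 61.1%, against 0%, 22.2% and 0%, a difference of 40.4 points (adjusted p = 0.0329 by limma). The sei values rest on 10 to 19 arsenite reads and 3 to 14 Schneider's reads per library over 3 positions, 1 of which also lies in an exon of gammaSnap1 on the other strand. Pooling reads over positions brought the sei difference to 22.3 points and ended its call. Leaving out Schneider's replicate 3 ended all 3 calls, with differences of 9.81 points for Atpalpha, 9.15 for Rop and 36.7 for sei. The Rop call also ended without Schneider's replicate 1 or 2 or arsenite replicate 2 or 3, and the sei call without Schneider's replicate 1 or arsenite replicate 1 or 3.

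The other 6 genes tested in S2 cells were not called on the deposited fractions. Among the alternatives, lap was called with reads pooled over positions and in the quasi-binomial model, and Csp where genes needed at least 20 reads in each sample. Csp had 21.1%, 17.5% and 24.9% with arsenite against 9.11%, 11.9% and 14% in Schneider's (adjusted p = 0.0582 by limma). For lap the values were 19.8%, 7.69% and 10.9% against 0.833%, 2.50% and 3.94% (adjusted p = 0.0843 by limma). Both had non-overlapping replicates. The conditions overlapped for shi, at 16.6%, 11.6% and 10% against 16.7%, 0% and 6.43%. For unc-13 the values were 0%, 0% and 5.71% against 4.58%, 6.25% and 9.82%, a difference of -4.98 points that did not pass. For Appl they were 0%, 3.33% and 0% against 0%, 12.5% and 20%, a difference of -9.72 points that did not pass, on 4 to 15 S2 reads per induced library. The value of cac came from 1 S2 read.

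**Figure D4:**
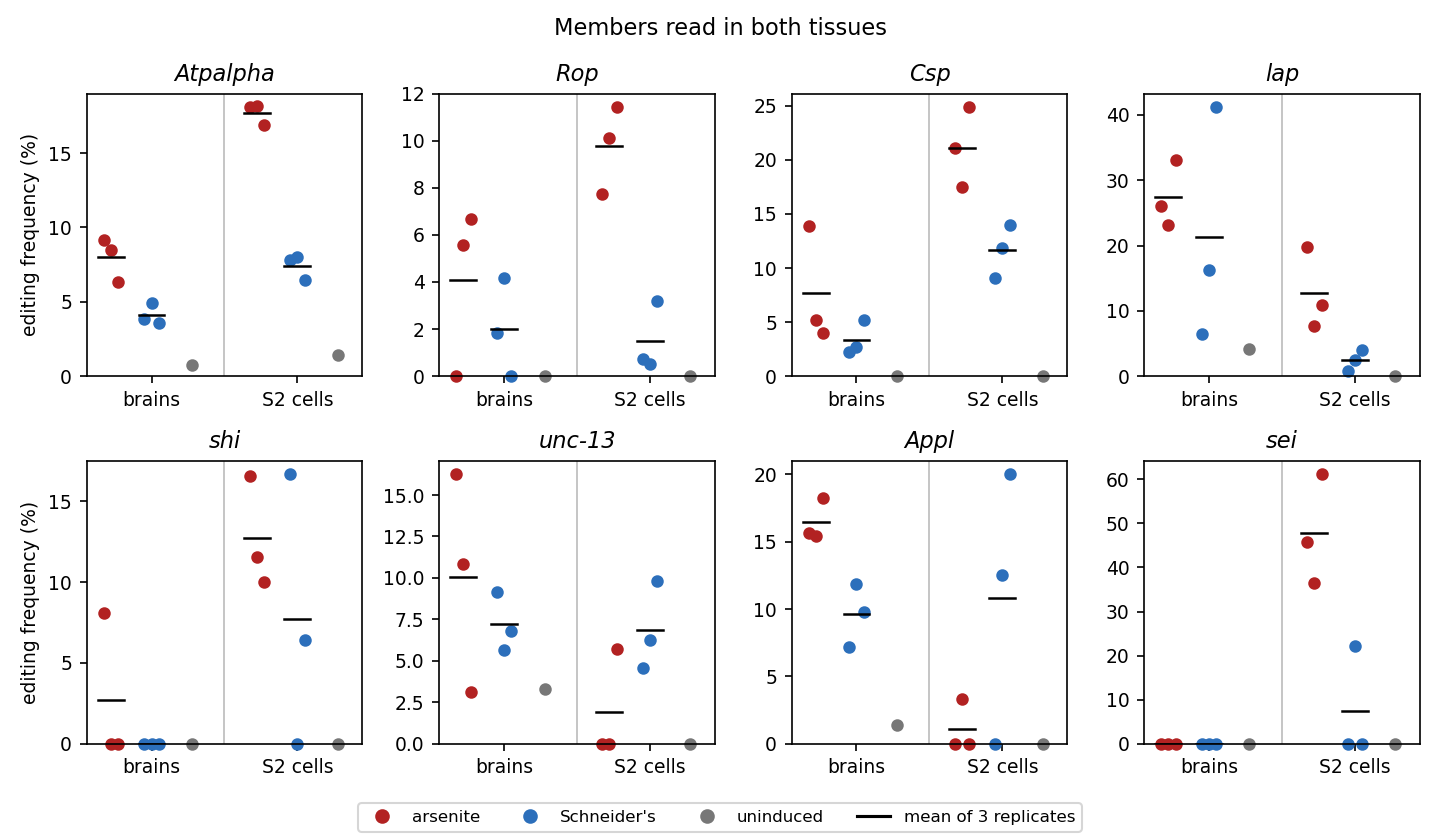
Deposited editing frequency of the 8 genes with at least 70 S2 reads, in brains (left of the line) and S2 cells (right), for arsenite (red) and Schneider's (blue) replicates with their means as bars and the single uninduced library (grey). Each panel has its own axis from 0. Arsenite lies above Schneider's without overlap in both tissues for Atpalpha, in brains only for Appl, and in S2 cells for Rop, Csp, lap and sei.

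The change with arsenite in brains minus that in S2 cells could be tested for 8 genes, and none passed p under 0.01, where 0.157% of 3818 genes were higher and 7.81% lower. At an adjusted p under 0.05 there were none either, against 0.0262% higher and 0.55% lower. At an unadjusted p under 0.05 there were 2 genes, Appl higher, as 0.838% of all genes were, and Atpalpha lower. The share of all genes on the lower side was not counted at this limit, and at p under 0.01 by limma it was 7.81%. For Atpalpha the difference of changes was -6.44 points (SE 2.18), with adjusted p = 0.149 by limma. For Appl it was 16.6 points (SE 5.94), with adjusted p = 0.166, and here the S2 side rests on the few reads given above. The median over the 8 was -4.69 points, and -5.34 points over all genes.

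Single positions with at least 10 reads in each induced brain library gave 42 tests in 10 genes of the set, and 2 were called higher with arsenite, none lower. Of 5018 positions tested, 6.18% were called higher and 0.139% lower, and 0.717% were higher at an adjusted p under 0.05, with none in the set. Atpalpha site 22, the last base of a codon at position 20966559 of chromosome 3R, was edited in 6 of 25, 7 of 25 and 3 of 19 arsenite reads. In Schneider's brains it was edited in 1 of 20, 1 of 17 and 0 of 22 reads, and in 0 of 28 uninduced reads. The difference was 19.0 points (adjusted p = 0.0795 by limma), and it was called with each library left out in turn. Appl site 3, which recodes Y504C at position 573971 of chromosome X, was edited in 6 of 18, 3 of 10 and 3 of 18 arsenite reads, against 1 of 12, 0 of 15 and 1 of 11 Schneider's reads and 0 of 12 uninduced reads. Its difference was 20.9 points (adjusted p = 0.115 by limma). That call ended without Schneider's replicate 1 or 2 and without arsenite replicate 1 or 2, and no member position but Atpalpha site 22 was then called.

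In S2 cells 34 positions in 5 genes of the set were tested, and 8 were called higher, where 16.4% of 9117 positions were, and none lower, where 0.0439% were. Of these 6 were in Atpalpha, sites 3, 5, 11, 21, 22 and 25, and the others were Rop site 1 and Csp site 5. At Atpalpha site 22 the share was 41.0% ± 3.84 with arsenite and 12.1% ± 9.46 in Schneider's (SD, n = 3 each), a difference of 28.9 points (adjusted p = 0.0224 by limma). The pooled arsenite share was higher in S2 cells than in brains at 30 of the 32 Atpalpha positions. Within S2 cells it was higher with arsenite than in Schneider's at 28 of the 32, with site 13 among the 2 where it was lower. That site differed by -10.5 points (adjusted p = 0.174 by limma).

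**Figure D5:**
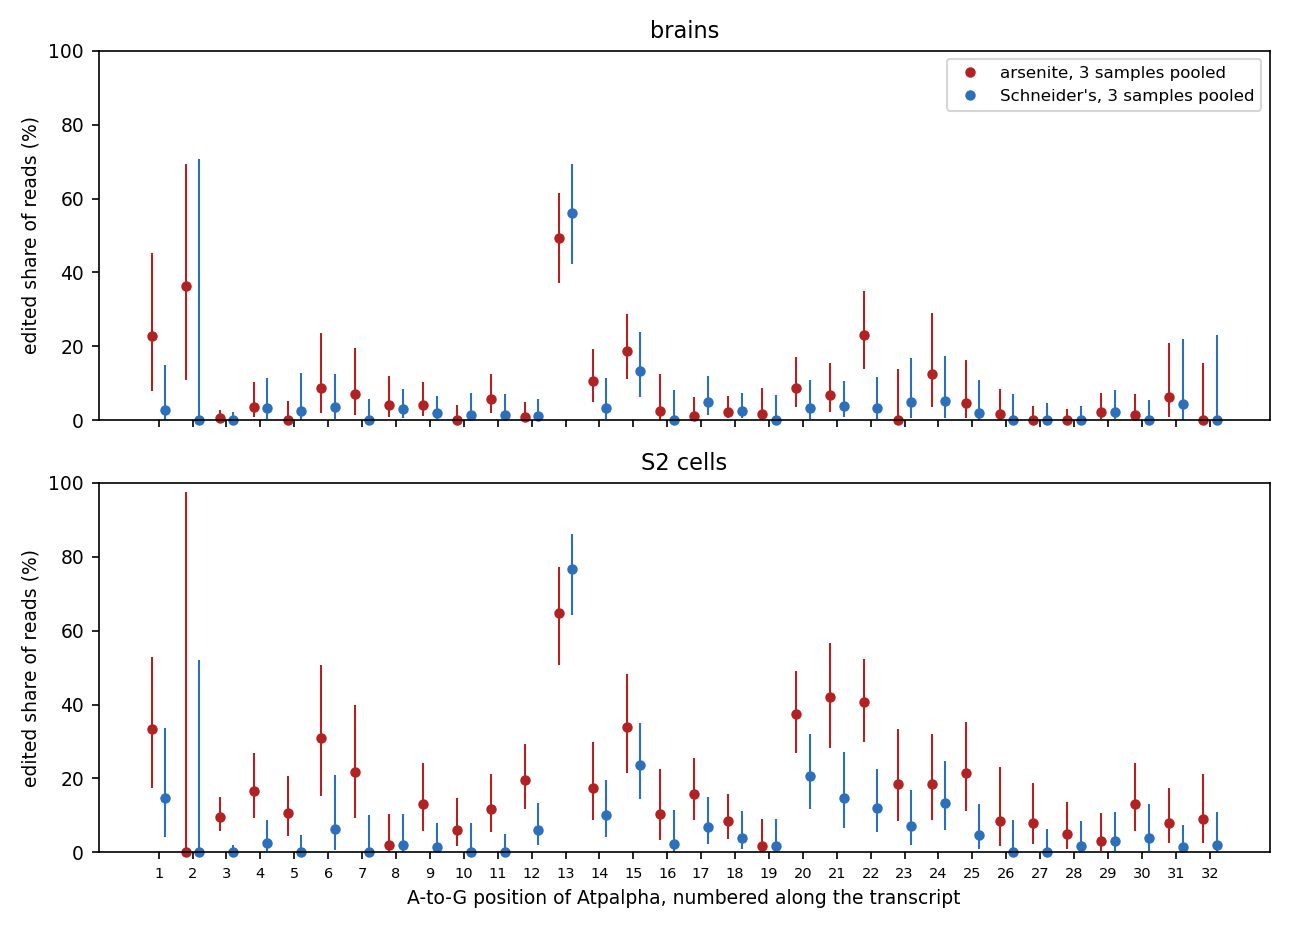
Edited share of pooled reads (3 replicates each) with 95% exact binomial intervals at the 32 Atpalpha positions, numbered along the transcript, for arsenite (red) and Schneider's (blue) in brains (top) and S2 cells (bottom). Site 13, edited also without induction, stands at 49.3% and 56.1% in brains, while site 22 separates the conditions in both tissues.

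A wider list of 103 other synaptic and excitability genes gave 44 tested in brains, of which 1 was called higher and none lower, where 6.06% of all genes were called higher and 0.0954% lower. That gene was GABA-B-R2, a metabotropic GABA receptor subunit, at 25%, 40% and 40% with arsenite against 0% in each Schneider's replicate. It rests on 6 edited of 18 arsenite reads and 0 of 13 Schneider's reads at 1 position (adjusted p = 0.0797 by limma). The mean was higher with arsenite in 33 of the 44, and in 86.7% of all genes, with a median difference of 4.1 points in the list and 4.87 points over all genes. In S2 cells 26 of the list were tested, 3 were called higher and none lower, where 23.6% of all genes were called higher and 0.0872% lower. The median difference was 6.34 points in the list and 10.7 points over all genes.

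For the 11 genes without an A-to-G position no editing value could be given. They are Rdl, ChAT, Gad1, nAChRalpha1, slo, Snap25, Ca-alpha1D, Ca-beta, SK and Shal, which have records of other base changes, and stnB, which has none. Their records were covered in brains, with 688 reads over 8 records of Gad1, the enzyme that makes GABA, and 519 over 9 records of nAChRalpha1, a nicotinic receptor subunit. For slo, a calcium-activated potassium channel, 8 brain reads lay on its 1 record. Coverage between the records is not in these values, so the lack of a called position says nothing firm about editing in the thinly read genes of this group.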

How the data were processed

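Bulk RNA was sequenced by VASA-seq, a strand-specific total RNA method. The authors trimmed reads with cutadapt 3.2, discarded ribosomal reads with BWA 0.7.17-r1188, aligned uniquely to BDGP6 with STARsolo 2.7.7a, removed duplicates with UMI-tools 1.1.1 and called variants on the merged alignments with GATK 4.1.9.0. A-to-G exonic positions were kept where the call quality exceeded 250 and G made up less than 0.95 of reads. The authors deposited for each gene the mean edited fraction per sample, and for each position the edited and total read counts. That fraction was recomputed from the counts within 1e-06 for 4998 of 5003 genes. A fraction of 0 can mean that no read covered the gene.

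Members and gene lists were chosen with earlier results of these data known. Fractions were compared with limma 3.58.1 (R 4.3.3, two-sided), untransformed, over all genes edited in at least 1 sample of the fit, and a call is p under 0.01 as in the study, with Benjamini-Hochberg adjusted p-values printed beside it. Positions were tested where each sample had at least 10 reads. Exact permutation of 3 samples against 3 cannot go below p = 0.1. No p-value was computed for means over groups of members. Intervals are exact binomial (Clopper-Pearson, scipy 1.17.1). Values per sample are given for each gene with an endogenously edited site, each gene called in either tissue and the 5 with most brain reads, and other synaptic genes are named only where called in brains. Positions were placed in the Ensembl 115 annotation of BDGP6. The scripts were tested on simulated data. Alternatives covered the scale, pooling of reads, coverage limits, the model and each replicate left out.

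The labels number the replicates but do not say what they are. The study calls its brain samples biological triplicates and its S2 samples triplicate experiments. The p-values measure the spread between these samples. Depth was a median of 5 to 10 reads per position and sample. Tables of the authors' own comparisons, 2 plates of single S2 cells and 10 libraries of the variant table that the labels do not map were not used.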

Additional observations from a re-analysis of the deposited data

How the results depend on the processing

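No member was called in brains under any alternative but the limit of 20 reads per gene and sample, which gave 1 (Appl), and leaving out each replicate in turn gave 0 calls each time. In S2 cells leaving out 1 replicate gave 0 to 2 of the 3 calls. There were 0 without Schneider's replicate 3, and 1, Atpalpha, without Schneider's replicate 1 or arsenite replicate 3. With reads pooled and in the quasi-binomial model lap was called in place of sei, and Csp in place of sei at 20 reads per gene and sample. For the tissue difference, 1 member (Atpalpha, lower in brains) was called with reads pooled over positions, 1 (Atpalpha) with positions of at least 10 reads and 1 (Atpalpha) with genes of at least 20 reads, and leaving out replicates gave 0 to 1, the 1 being Appl without S2 Schneider's replicate 1. The 2 brain positions became 0 at an adjusted p under 0.05, 0 at 20 reads per sample, where both fell under the limit, 1 in the quasi-binomial model, and 1 to 4 with a replicate left out. The difference over endogenously edited positions, -4.90 points, ran from -13.6 to 0.0828 with a replicate left out and was 2.08 with reads pooled. That over positions without uninduced editing, 3.45 points, was 5.13 among positions of quality above 1000 and 2.43 to 4.38 with a replicate left out. The cause of these changes was not tested.

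Deviations of same-numbered samples from their group means correlated at -0.00993, 0.0123 and -0.0223 in brains and at 0.0550, 0.0101 and 0.00153 in S2 cells. Not every sample correlated best with its own number. With few reads per position, this check cannot tell whether same-numbered samples belong together, and the labels give them only a shared number. With the replicate block, 0 members were called in brains, 0 in S2 cells, 0 for the tissue difference and 3 positions in brains.

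Among all genes, the 254 higher in brains were 100 with the block, 160 with positions of at least 10 reads, for which 1423 genes were tested, and 84 to 392 with a replicate left out. The 1083 higher in S2 cells were 497 with the block and 520 to 985 with a replicate left out. The 298 lower in the tissue difference were 80 on the arcsine scale, 119 with positions of at least 10 reads, 150 with the block and 190 to 366 with a replicate left out. The 310 brain positions were 111 at 20 reads and 158 to 439 with a replicate left out. Depth limits most the genes under 30 brain reads, Sh, cac, eag, Syt1 and nrv3. Leaving out samples without reads of a gene, chosen after seeing the data, changed no count of members called in brains or S2 cells.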

Other observations

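A set of A-to-G records in the same genes lay outside the deposited frequencies. Under the quality limit of 250 there were 9 such positions in 5 genes, edited in 12 of 773 arsenite brain reads, 2 of 787 Schneider's brain reads and 0 of 313 uninduced brain reads. In S2 cells the counts were 10 of 499, 3 of 474 and 0 of 159. At 5 further positions, in Syt1 and unc-13, every read carried G in every condition, uninduced included.

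Atpalpha site 13 was the only one of the 32 Atpalpha positions with more than 1 edited read in the uninduced S2 library, at 6 of 16 reads.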
